A study of Mus musculus with 2 samples.

Results

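The machinery described here carries newly made secretory and membrane proteins into the endoplasmic reticulum (ER), attaches sugars to them there and moves them on to the Golgi in coated vesicles. Its members were all genes whose symbols fit a fixed set of patterns, as named by the MG_U74Av2 annotation for probe sets mapping to exactly 1 gene. The patterns cover the ER translocon, signal recognition, signal peptide removal, N-glycan attachment and the COPI and COPII coats. They also cover cargo and retrieval receptors, Arf GTPases with their activating proteins, and Golgi matrix proteins. Not every gene of these parts fits a pattern. The rule took 103 of the 12488 probe sets, which stand for 71 of the 8251 genes named on the array. It applied no cut on a measured value, but the members and role groups were chosen with earlier results of these data known. A further 5 probe sets list a fitting symbol together with other genes and were left out. The symbol patterns also caught genes with other roles, namely the lipid-binding genes Sec14l1 and Sec14l2, together with Sec1 and Tmed8.

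Both samples were total RNA of MEF 3T3, an immortalised mouse embryo fibroblast line, in serum-free DMEM, with 2.5 µg/µl RNA. The suspension sample came from cells held unattached, and the fibronectin sample from cells plated for 30 min on 10 µg/ml fibronectin, the matrix glycoprotein to which fibroblasts bind through integrins. Per the labels, the pair served to find genes induced by fibronectin and to follow expression in MAPK signalling. The series' design text speaks of 2 replicates, without saying what they were. Each condition has 1 array here, so no difference has a replicate check, "higher" and "lower" describe these 2 arrays, and no p-value can be given.

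In the textbook route, the signal recognition particle (SRP) binds a signal peptide as it leaves the ribosome and docks at its receptor on the ER. The chain then passes through the Sec61 channel, signal peptidase cuts the signal, and the oligosaccharyltransferase adds N-glycans. Cargo leaves the ER in COPII vesicles, often held by cargo receptors that span the membrane, and COPI vesicles return receptors and escaped ER residents. Fibroblasts send large amounts of collagen and other matrix proteins along this route.

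Promoters of members are shown first, because many genes of this route are known targets of the transcription factors of the unfolded protein response, which bind elements with the core CCACG. RefSeq promoter entries (GRCm38.p6, 250 bases before to 50 after an annotated start) were present for 59 of the 71 members. For 49 of their 67 entries that start was the outer end of the gene, as it was for each gene printed here, and the others begin at another start. Both strands were searched, and a gene with several starts counted once if any of its entries held a motif. The unfolded protein response element TGACGTGG, which overlaps the core on its other strand, was found in 5 members: Arf1, Copb1, Copb2, Kdelr3 and Sec23a. That is 8.47% of members with an entry, against 0.714% of all 27025 genes with an entry and 1.27% of the 5122 measured genes with one. The longer ER stress element, CCAAT then 9 bases then CCACG, was found in 0 members and in 0.137% of all genes, and its variant, ATTGG then 1 base then CCACG, in 0 members and 0.0444% of all genes. The bare core was found in 41 members (69.5%), against 35.5% of all genes and 51.0% of measured genes. These matches are descriptions of sequence and not of binding.

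The 100-base stretches upstream of the start that hold the response element are shown for Copb1 and Kdelr3, on the gene's strand, 5′ to 3′. The element's reverse complement is in capitals. Arf1 also has such an upstream stretch, which is not printed. Copb1 is at chr7:114254681-114254780 (minus strand) and Kdelr3 at chr15:79516308-79516407 (plus strand).
Copb1: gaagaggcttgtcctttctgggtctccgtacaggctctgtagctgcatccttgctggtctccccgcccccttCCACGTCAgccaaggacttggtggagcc
Kdelr3: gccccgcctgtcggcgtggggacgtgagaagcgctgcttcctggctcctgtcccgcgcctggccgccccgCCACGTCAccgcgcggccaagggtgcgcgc
The element begins 28 bases before the start in Copb1 and 30 bases before it in Kdelr3, in the same orientation. In Copb2 and Sec23a it overlaps or follows the start. In Arf1 it lies in the opposite orientation, begins 84 bases before 1 of 2 starts and follows the other. Of these 5 genes, Copb1 and Kdelr3 passed 1.5-fold upwards on fibronectin. The log2 ratios of Arf1, Copb2 and Sec23a, fibronectin minus suspension, were 0.31, 0.36 and -0.34.

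Of the 9 cargo receptor genes 8 were higher on fibronectin in their brightest probe set. Of the 6 with an entry, 3 are printed with 150 bases upstream of the start, to show upstream regions with and without the core. Capitals mark the core on either strand, which here reads as its reverse complement, CGTGG. Lman2 is at chr13:55362784-55362933 (minus strand), Tmed9 at chr13:55592985-55593134 (plus strand) and Tmed4 at chr11:6274838-6274987 (minus strand).
Lman2: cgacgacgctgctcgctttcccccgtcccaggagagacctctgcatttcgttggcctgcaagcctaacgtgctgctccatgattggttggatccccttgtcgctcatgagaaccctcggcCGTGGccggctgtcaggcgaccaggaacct
Tmed9: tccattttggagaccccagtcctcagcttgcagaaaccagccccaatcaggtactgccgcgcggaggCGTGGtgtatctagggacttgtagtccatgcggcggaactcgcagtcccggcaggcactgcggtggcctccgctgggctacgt
Tmed4: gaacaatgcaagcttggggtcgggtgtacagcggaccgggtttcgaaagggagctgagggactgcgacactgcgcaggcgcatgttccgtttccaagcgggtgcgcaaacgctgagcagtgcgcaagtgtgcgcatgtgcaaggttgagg
In these 150 bases the core was present 1 time each in Lman2 and Tmed9, 2 times in Kdelr3 and 0 times in Tmed4, Tmed3 and Kdelr1, and thus in 3 of the 6 genes. The entry of Tmed3 held the core outside these 150 bases, and was among the members counted with it above. The share of all genes with the core in this shorter window was not counted, so it cannot be set beside the shares above. Tmed4 was the cargo receptor gene with the highest ratio. Members without an entry were Arf6, Golga4, Golga7, Kdelr2, Lman1, Sec11c, Sec61a1, Srp19, Srp68, Ssr2, Tmed7 and Tram1.

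Relative to all measured genes, the machinery lay higher on fibronectin, with the highest role medians among cargo receptors (0.95), the oligosaccharyltransferase (0.58) and the translocon (0.39). Signals are MAS5 intensities scaled to a common trimmed mean, and the log2 ratio is fibronectin minus suspension after a floor of 490, the average of the 40th percentiles of the arrays. A gene counted as measured if its brightest probe set reached the floor in at least 1 array, which held for 66 of the 71 members. Where 1 array fell below the floor the fold is a bound, given as "at least". Of the 66 genes, 42 had a ratio above 0 and 24 below, with a median of 0.29, against -0.09 over all 6385 measured genes. Past 1.5-fold upwards were 20 members (30.3%), where 15.9% of all measured genes were, and past it downwards were 7 (10.6%), where 22.6% were. At the 2-fold size, 7 members were higher and 2 lower, beside 5.79% and 9.27% of all measured genes. Scaling to the array medians, which moved the median of all genes to 0.11, gave 27 higher and 4 lower members. These were 40.3% and 5.97% of members, against 23.3% and 15.4% of all measured genes. Scaling to the 9 probe sets of foreign control RNA spiked into the hybridisation mix (the spikes) gave 5 higher and 22 lower members. These were 7.46% and 32.8% of members, against 5.77% and 45.9% of all measured genes. The members' median turned to -0.16, while the median of all genes moved to -0.51.

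**Figure D1:**
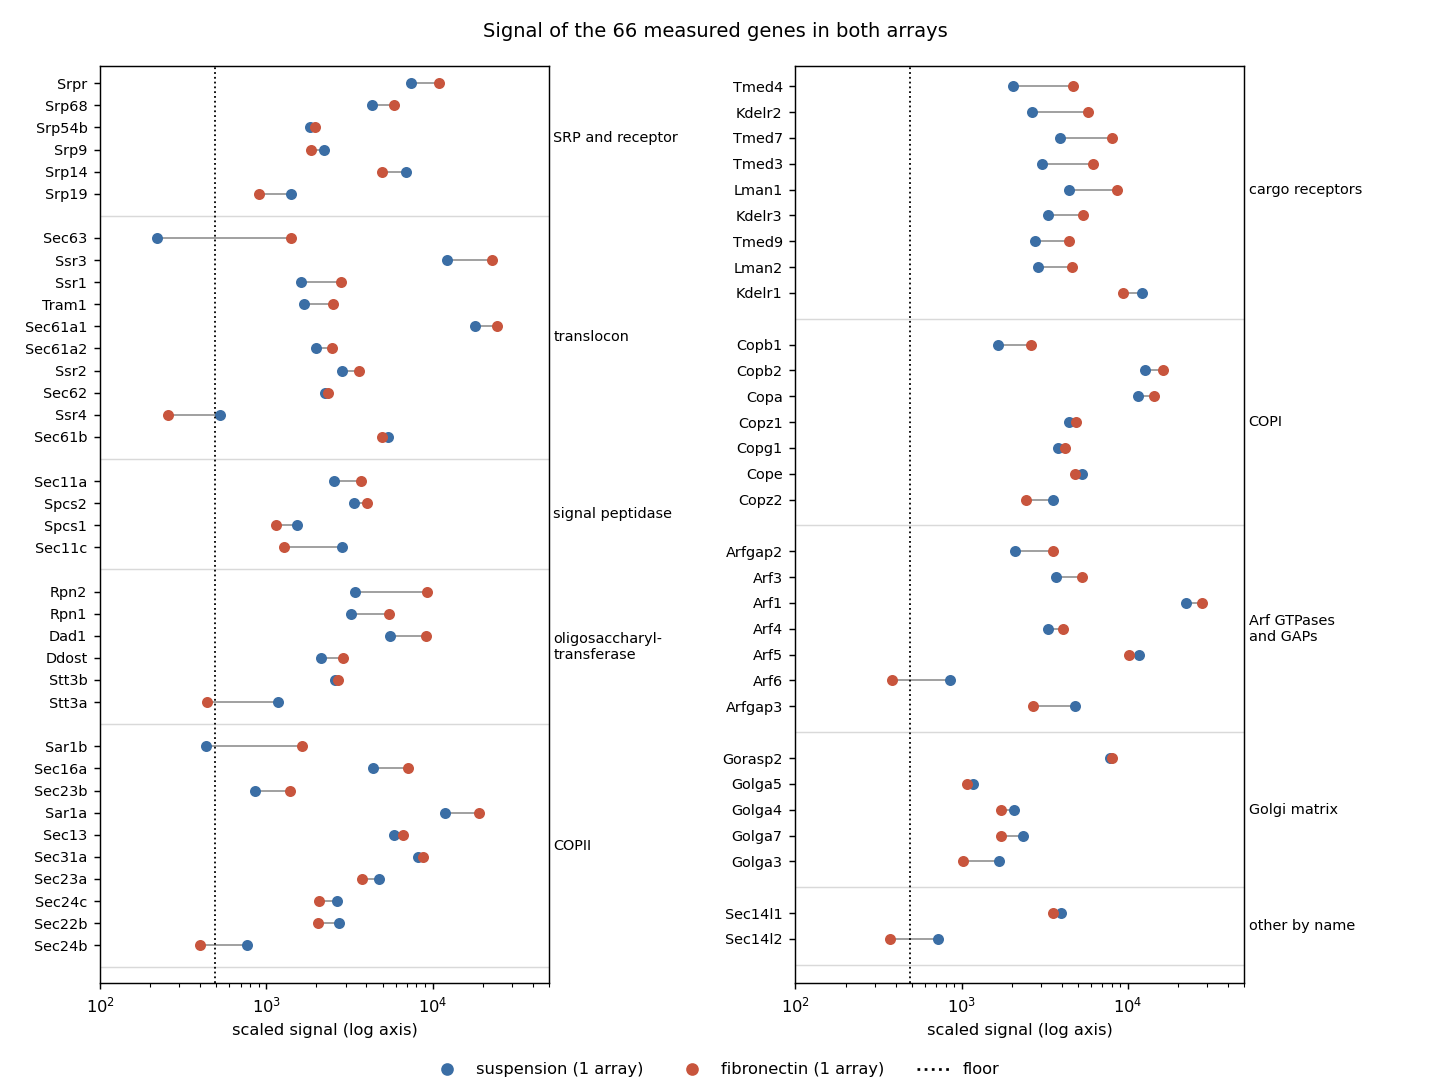
Scaled signal (log axis) of the 66 measured members, 1 line per gene, grouped by role, with suspension in blue, fibronectin in red, 1 array each, and the floor of 490 as a dotted line. In 8 of 9 cargo receptor genes the fibronectin point lies to the right, while 4 of 5 Golgi matrix genes point the other way.

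The members were bright as a class, with 47 of 66 in the highest tertile of all measured genes by signal. In that tertile 34.0% of members passed 1.5-fold upwards and 2.13% downwards, against 16.9% and 10.5% of all genes there. In the middle tertile 3 of 13 members were higher and 3 lower (23.1% each), against 14.6% and 29.0% of all genes there. In the lowest tertile 1 of 6 members was higher and 3 lower, against 16.2% and 28.1% of all genes there. The median of the members in the middle tertile, -0.26, was close to that of all genes there, -0.20, while in the highest tertile the medians were 0.33 and 0.04.

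**Figure D2:**
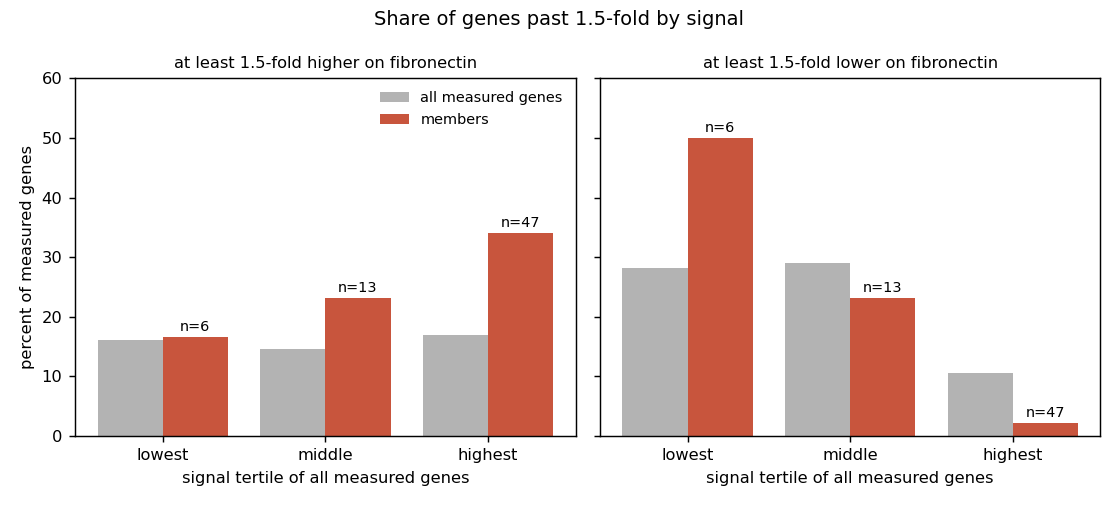
Percent of measured genes at least 1.5-fold higher (left) or lower (right) on fibronectin, by tertile of signal over all measured genes, for all genes (grey) and members (red, with their number). In the highest tertile, members past 1.5-fold were 34.0% higher and 2.13% lower, against 16.9% and 10.5% of all genes.

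**Figure D3:**
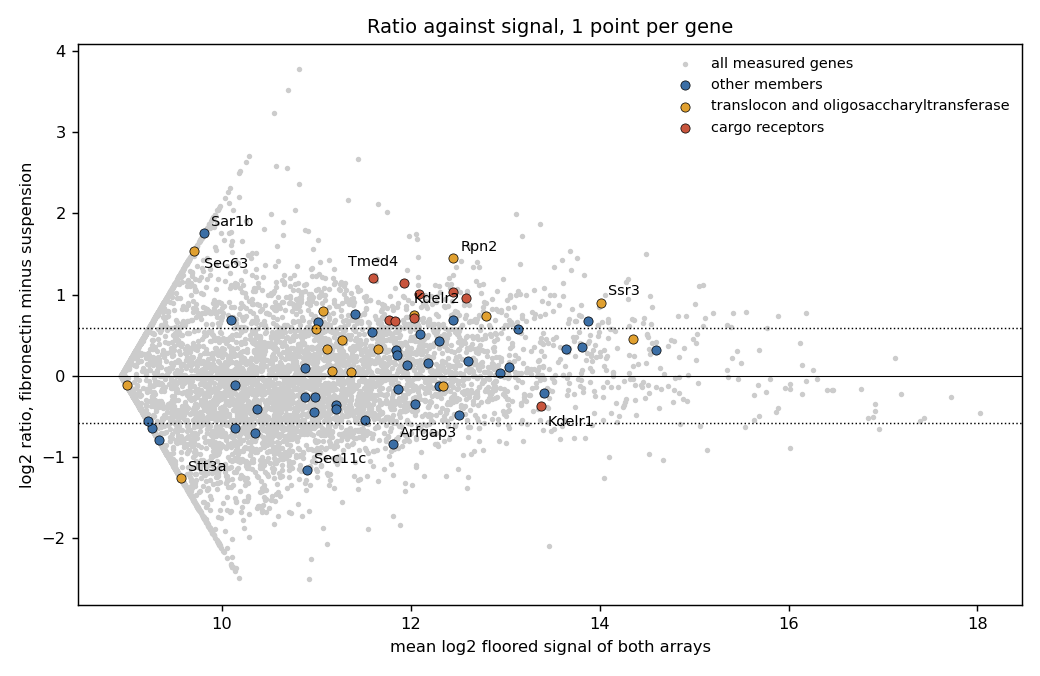
Log2 ratio, fibronectin minus suspension, against the mean log2 floored signal, 1 point per gene, with all measured genes in grey, cargo receptors in red, the translocon and oligosaccharyltransferase in orange and other members in blue, and dotted lines at 1.5-fold. Of the 9 cargo receptor genes 8 lie between 0.67 and 1.20 and Kdelr1 at -0.37, and the slanted left edges are ratios bounded by the floor.

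The only error the files allow is the spread between probe sets of 1 gene, which holds no culture or array error. The SD of a single log2 ratio, from 1146 genes with at least 2 measured probe sets, was 0.69, and 0.43 for the 178 genes with 2 probe sets in the highest tertile of signal. Among the 21 members with a second measured probe set this SD was 0.73, so a 1.5-fold difference of a member is within the spread between probe sets. In 14 of the 21 (66.7%) the second probe set had the same sign as the brightest, against 59.2% of all such genes. For the 178 genes with 2 probe sets in the highest tertile, which holds 47 of the 66 members, it was 69.1%.

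**Figure D4:**
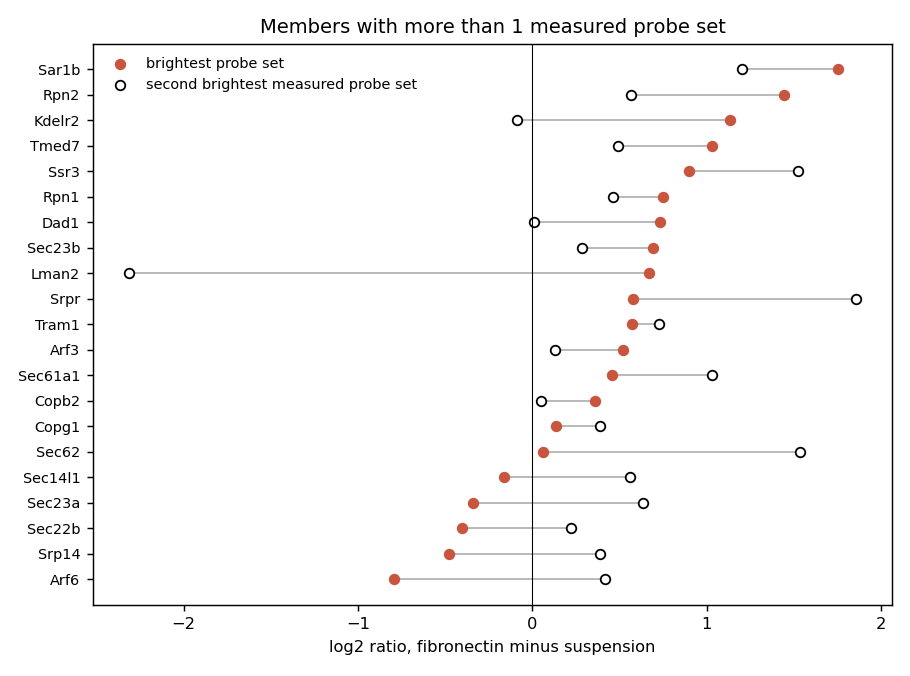
Log2 ratios of the brightest (red) and second brightest measured probe set (open) of the 21 members with more than 1, ordered by the brightest. Both lie above 0 for Sar1b, Rpn2, Tmed7, Ssr3 and Rpn1, while those of Lman2 lie at 0.67 and -2.31.

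Components that target a ribosome to the ER showed no common direction. Of 7 members 6 were measured, and 1 of them passed 1.5-fold, downwards. Their median of -0.08 had no settled sign, being 0.08 with median scaling, 0.07 after quantile normalization and -0.55 with the spikes. The gene of the receptor's alpha subunit, Srpr, gave 7375 in suspension and 11001 on fibronectin, a log2 ratio of 0.58, and its second probe set was 3.63-fold higher, at 1001 and 3631. Both Srpr probe sets thus stood higher on fibronectin, with very different sizes. The particle subunit genes were mixed. Srp68 had signals of 4339 and 5838 (log2 ratio 0.43) and Srp54b a ratio of 0.10, while Srp9 had 2211 and 1851 (-0.26) and Srp14 had 6886 and 4939 (-0.48). For Srp14 a dim second probe set pointed upwards, by at least 1.31-fold. Srp19, a subunit that helps assemble the particle, was 1.56-fold lower, at 1409 and 905, and was within 1.5-fold under 3 of the 4 other scalings. The receptor's beta subunit gene Srprb was below the floor in both arrays.

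In the translocon, 8 of 10 genes were brighter on fibronectin, 3 of them past 1.5-fold, and 0 passed it downwards. The median was 0.39, and of the 10 alternatives only scaling to the spikes turned it, to -0.08. Sec61a1, the gene of the channel's pore-forming subunit, had signals of 17906 in suspension and 24590.1 on fibronectin, a log2 ratio of 0.46, and its second probe set was 2.05-fold higher, at 7610.2 and 15586. Its relative Sec61a2 had a ratio of 0.33. The small channel subunit gene Sec61b had signals of 5393 and 4963 (-0.12), against 0.46 for Sec61a1. These signs differed, but with median scaling both were above 0 (0.66 and 0.09) and with the spikes both below it (-0.02 and -0.59). Sec63, which recruits the lumenal chaperone BiP to the channel, was at least 2.89-fold higher, with 219 in suspension and 1415 on fibronectin. On fibronectin 95% of the negative control probe sets lay under 1873, which is above this Sec63 signal, and with the floor at the 60th percentile its log2 ratio was 0.43. Sec62, its partner in post-translational import, was close in its brightest probe set, at 2247 and 2346, and the others gave -0.37 and at least 2.91-fold higher. Tram1, a channel-associated membrane protein, had 1681 and 2504 (0.57), and 0.73 in its second probe set.

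The translocon-associated protein complex, which helps some chains enter the channel, is encoded by Ssr1 to Ssr4. Ssr3, its gamma subunit, had signals of 12136 in suspension and 22662 on fibronectin, 1.87-fold higher. A second Ssr3 probe set was 2.87-fold higher, at 2226 and 6397, and the remaining one, whose suffix marks probes shared with it, was 13.0-fold higher, at 529.6 and 6889. All 3 probe sets of Ssr3 pointed the same way. Ssr1, the alpha subunit, was 1.74-fold higher, at 1627 and 2833, and its second probe set was below the floor in both arrays. The beta subunit gene Ssr2 had 2864 and 3601 (0.33). Ssr4 had 529.8 and 256.0, both near or below the floor, so only a bound of 1.08-fold lower can be given, and with no floor its log2 ratio was -1.05.

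Signal peptidase, the enzyme that removes the signal peptide, was split between its catalytic subunits, and its median of -0.07 turned to 0.13 with median scaling. Sec11c was 2.24-fold lower, at 2856 in suspension and 1277 on fibronectin, and kept a 1.5-fold difference under all 10 alternatives run. The other catalytic subunit gene, Sec11a, had 2560.3 and 3704, a log2 ratio of 0.53. The accessory subunit genes Spcs1 and Spcs2 had ratios of -0.41 and 0.26.

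Among the 6 oligosaccharyltransferase genes 5 were brighter on fibronectin, and 3 passed 1.5-fold upwards and 1 downwards. Their median was 0.58 and stayed above 0 under all 10 alternatives, with 0.11 after scaling to the spikes. Rpn2, a structural subunit, was 2.72-fold higher, with 3395 in suspension and 9248 on fibronectin. Its other probe set had 1826 and 2699.9, a ratio of 0.56. Both carry a suffix that Affymetrix gives to probe sets with less unique or incomplete probes, so Rpn2 is not measured by a unique probe set. Rpn1, a companion subunit, was 1.68-fold higher, at 3245 and 5467, and 0.46 in its second probe set. Dad1, the small subunit named for its defence against cell death, was 1.66-fold higher, at 5515 and 9163, while a dimmer probe set was level, at 689.5 and 695.0. Ddost had 2125 and 2875 (0.44). The catalytic subunit genes did not follow these partners. Stt3a was at least 2.39-fold lower, at 1172 and 438, and Stt3b had 2605 and 2682. Both Stt3a signals were within the range of the negative controls, and with a floor at the 60th percentile the log2 ratio was -0.16.

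COPII, the coat that buds from the ER, had 10 of 11 genes measured, and 4 passed 1.5-fold upwards and 1 downwards. Its median of 0.14 was not settled in sign, as it was -0.02 after quantile normalization and -0.33 with the spikes. The small GTPases that start coat assembly were both higher. Sar1a had 11892 in suspension and 18903 on fibronectin, 1.59-fold higher, but not past 1.5-fold after quantile normalization, loess or scaling to the spikes. Sar1b was at least 3.37-fold higher, at 436 and 1650.2, and 2.30-fold higher in its other probe set, at 508 and 1171. All 4 Sar1b signals lay within the range of the negative controls. Both Sar1b probe sets carry a suffix, as those of Rpn2 do, and the call was lost with suffix-free probe sets only. Sec16a, the scaffold of ER exit sites, was 1.62-fold higher, at 4407 and 7119, and within 1.5-fold under the same 3 alternatives. Of the inner coat genes, Sec23b was 1.61-fold higher, at 859.9 and 1388, but within 1.5-fold or not measured under 4 of the 10 alternatives. Sec23a had 4770 and 3763 (-0.34), a dim further probe set pointed upwards by at least 1.55-fold, and the mean over both was 0.15, so its direction is not settled. Sec24b, a cargo-binding subunit, was at least 1.56-fold lower from a dim 764, past 1.5-fold under 4 of the 10 alternatives, and Sec24c had a ratio of -0.36. The outer coat genes Sec13, at 5864 and 6637, and Sec31a were within 1.5-fold, with ratios of 0.18 and 0.10. Sec22b, a SNARE that COPII vesicles carry, had -0.40, and 0.22 in its second probe set. Sec23ip was below the floor in both arrays.

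Cargo receptors and retrieval receptors had the largest share of genes past 1.5-fold among the role groups, 88.9%, with ratios from -0.37 to 1.20. All 9 genes were measured, 8 passed 1.5-fold upwards and 0 downwards, and the median was 0.95. The median stayed above 0 under all 10 alternatives, between 0.48 with the spikes and 1.16 with median scaling. With the spikes 2 of the genes passed 1.5-fold upwards and 1 downwards, and with a mean over probe sets 6 upwards and 1 downwards. The p24 family, short membrane proteins that cycle between ER and Golgi and sort cargo into vesicles, gave 4 genes. Tmed4 had 2049 in suspension and 4697 on fibronectin, 2.29-fold higher, and kept a 1.5-fold difference under all 10 alternatives. Tmed7 was 2.04-fold higher, at 3916 and 7992, with 0.49 in its second probe set. Tmed3 was 2.02-fold higher, at 3061 and 6169, and Tmed9 was 1.61-fold higher, at 2743 and 4419. All 4 were brighter on fibronectin in every probe set that was measured.

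Lman1 (ERGIC-53), a lectin that carries glycoproteins out of the ER, was 1.93-fold higher, at 4431 and 8567, and its other 2 probe sets were below the floor. Lman2 (VIP36), a related lectin, was 1.59-fold higher, at 2884 and 4594. Its second probe set, with a suffix for relaxed probe selection rules, was 4.97-fold lower, at 2446 and 493, so the direction of Lman2 is not settled. The KDEL receptors return chaperones that bear a C-terminal retrieval signal. Kdelr2 was 2.20-fold higher, at 2634 and 5786, and a dim second probe set was at least 1.06-fold lower. Kdelr3 was 1.63-fold higher, at 3288 and 5372, in its only probe set, which its suffix marks as shared with other transcripts. Kdelr1 stood apart from both, with 12101 in suspension and 9364 on fibronectin, a log2 ratio of -0.37.

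COPI, the coat of retrograde vesicles, was close to level. Of 7 genes 1 passed 1.5-fold upwards and 0 downwards, and the median was 0.15, which was -0.32 with scaling to the spikes. Copb1, the beta subunit, was 1.59-fold higher, at 1654 in suspension and 2622 on fibronectin. Copa had 11423 and 14380.4 (0.33) and Copb2 12700.0 and 16271 (0.36). The second probe set of Copb2 was level, at 1945 and 2014 (0.05), and that of Copg1 gave 0.39. Copg1, Copz1 and Cope had ratios of 0.14, 0.15 and -0.13, and Copz2, an alternative zeta subunit, had 3543 and 2431 (-0.54). Only Copb1 of the 7 COPI genes thus passed 1.5-fold.

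The Arf GTPases, which recruit COPI and other coats to Golgi and plasma membranes, were mixed, with a median of 0.31 over the 7 measured genes of this group, turning to -0.16 with the spikes. Arf1, which recruits COPI, had 22302 in suspension and 27743 on fibronectin (0.31). Arf3 and Arf4 had ratios of 0.52 and 0.31, and the further probe sets of Arf3 gave 0.13 and -0.41. Arf5 had 11684 and 10095 (-0.21). Arf6, which acts at the plasma membrane, was at least 1.73-fold lower, at 848 and 379, and at least 1.34-fold higher in its other probe set, at 122 and 655, so its direction is not settled. Arf2 was below the floor in both arrays. The 2 GTPase-activating proteins for Arf1 pointed in opposite directions. Arfgap2 was 1.69-fold higher, at 2096 and 3535, and Arfgap3 was 1.79-fold lower, at 4801 and 2686. The difference of Arfgap3 stayed past 1.5-fold under all 10 alternatives, and that of Arfgap2 under all but the spikes.

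The genes grouped by symbol as Golgi matrix, whose products include tethers and stacking proteins, lay lower or level. Of 5 genes 4 had a ratio below 0, and their median of -0.27 stayed below 0 under all 10 alternatives. Golga3 was 1.63-fold lower, at 1674 in suspension and 1024 on fibronectin, and within 1.5-fold after quantile normalization, loess, median scaling or a floor at the negative controls. Golga7, Golga4 and Golga5 had ratios of -0.44, -0.27 and -0.11. Gorasp2, a stacking protein, had 7812 and 8000.3. Of the genes caught by name alone, Sec14l1 had a ratio of -0.16 and Sec14l2 was at least 1.48-fold lower, while Sec1 and Tmed8 were below the floor.

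Other genes of the same route were taken from fixed lists with the members removed, lists also chosen with earlier results of these data known. Of all measured genes 15.9% passed 1.5-fold upwards and 22.6% downwards. Of 30 measured ER chaperone and unfolded protein response genes, 12 passed 1.5-fold upwards and 2 downwards, and the median was 0.53. The disulfide isomerases Pdia6 and Pdia3 were 4.34-fold and 3.99-fold higher and the cochaperone Dnajb9 3.39-fold. Of 24 genes of N-glycan assembly and trimming, 6 were higher and 0 lower, with a median of 0.20. Mpdu1, needed for the use of dolichol-linked mannose, was at least 3.51-fold higher, the phosphomannomutase gene Pmm1 2.65-fold and the Golgi mannosidase gene Man2a1 2.53-fold, at 4060.0 and 10271. Among 38 tethers, SNAREs and other coat proteins between ER and Golgi, 10 were higher and 5 lower, with a median of 0.20. Mia3 (TANGO1), which loads collagen into COPII carriers, was at least 4.96-fold higher, at 408 and 2430.1, Rab1a at least 2.23-fold and the Arf exchange factor gene Cyth2 2.10-fold. Of 10 further genes of translocation, 3 were higher and 0 lower, with a median of 0.46, led by the membrane insertase subunit gene Emc3 (3.48-fold), Tmco1 (1.87-fold) and Bag6 (1.85-fold). Clathrin coats and adaptors, which serve later steps, had 3 of 21 higher and 1 lower and a median of -0.14, with Gga1 at least 3.81-fold higher, the dynamin gene Dnm2 2.09-fold lower and Ap1g2 at least 1.77-fold higher. With scaling to the spikes the medians of the glycan and tether lists were -0.26 and -0.27, those of the chaperone and translocation lists 0.05 and 0.01, and that of the clathrin list turned to 0.06 with median scaling. The counts past 1.5-fold moved too, and with the spikes 5.77% of all measured genes were higher and 45.9% lower. Beside that, 3 of 36 tether genes were higher and 12 lower, and 1 of 20 clathrin genes higher and 12 lower. Of 30 chaperone genes 5 were higher and 5 lower, and of 23 glycan genes 3 were higher and 3 lower. Of the list genes named, Mpdu1, Rab1a, Cyth2, Gga1 and Ap1g2 lay in both arrays below the 95th percentile of the negative controls. Mia3, Pmm1, Dnajb9 and Tmco1 also lay within the range of the negative controls in both arrays. Its upper end was 1452 in suspension and 2527 on fibronectin.

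Some facts of the arrays moved with the groups. The probe sets for the 5′ end of Actb were 0.557 of those for its 3′ end in suspension and 0.840 on fibronectin, and for Gapdh the ratios were 0.679 and 1.19, higher on the fibronectin array for both genes. The arrays also differed in chip lot, fluidics module, operator and scan day, which cannot be told apart from the groups. The part of these in the members' ratios was not tested. Of 14 fibroblast markers on the array, 13 were measured, with Col1a1 at 45605 and 68592, while Thy1 was below the floor and Vim was at 1421 and 686. Their summed signal was 174959 in suspension and 272765 on fibronectin, and those of epithelium, endothelium, muscle, adipocytes, and macrophages and blood were at most 9069 in either array. Of the 8 macrophage and blood markers on the array, Cd14 (5342 and 3857), Csf1r (1844 and 1443) and Cd68 (673 and 831) reached the floor in both arrays, while the other 5, among them Ptprc and Lyz2, were below it. So did epithelial Cdh1 (2154 and 1112) and the muscle genes Ckm (1672 and 668), Myod1 (1535 and 650) and Myog (611 and 1448). Epithelial Cldn4 was at 1412 in suspension and 203 on fibronectin. Fewer cells of a type and less RNA per cell cannot be told apart in such bulk samples.

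**Figure D5:**
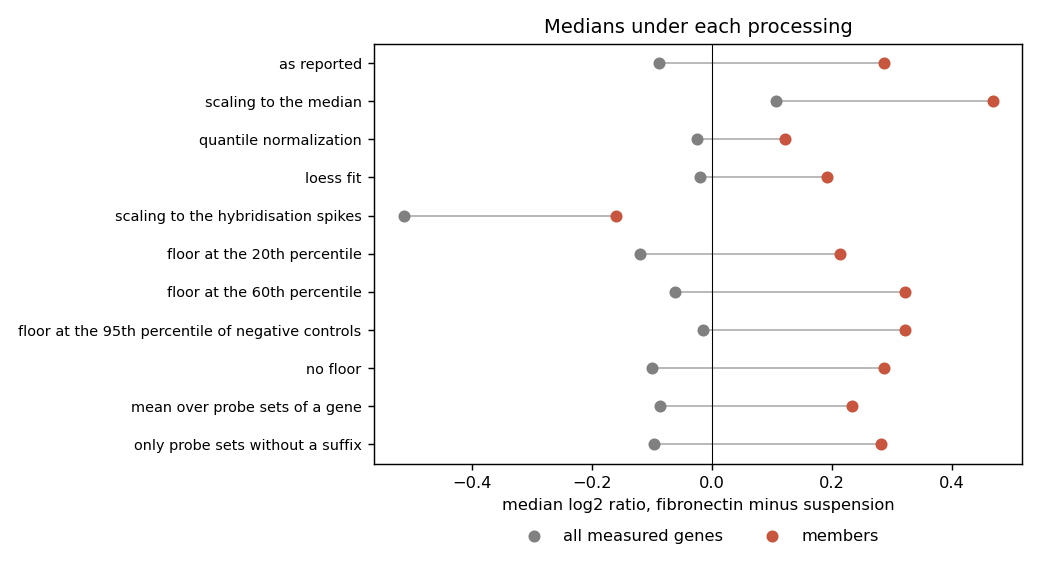
Median log2 ratio, fibronectin minus suspension, of all measured genes (grey) and of the members (red) as reported and under each of 10 other ways of processing. The members' median lies above that of all genes in each, by 0.15 with quantile normalization to 0.39 with no floor, and below 0 only with scaling to the spikes.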

How the data were processed

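The authors deposited 1 linear intensity per probe set and array, which the submitters' processing notes credit to MAS5. The version and scaling target of MAS5 are not given in the sources used, and no detection calls were used. Each array was scaled to the mean of both 2% trimmed means (factors 0.999 and 1.00) taken over 12422 non-control probe sets. Signals were floored at 490 before log2 was taken. A gene was read from its probe set with the highest mean floored log2 signal. Genes were counted at 1.5-fold and 2-fold, with no test. All 71 members matched the RefSeq gene table of GRCm38.p6 by gene ID and 0 symbols changed. The 34 negative controls are antisense, bacterial and yeast control probe sets other than the hybridisation spikes. Probe set suffixes follow Affymetrix usage. The text names each member past 1.5-fold, a list of core subunits, and up to 3 genes per pathway list with the largest ratios. The members, role groups and lists were chosen with earlier results of these data known. Samples were grouped by their titles. The alternatives were 4 other scalings, 4 other floors, a mean over probe sets and the use of suffix-free probe sets only. Calculations (Python 3.11.15, numpy 2.4.6, pandas 2.3.3) were tested on simulated data with known ratios.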

Additional observations from a re-analysis of the deposited data

How the results depend on the processing

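The count of members at least 1.5-fold higher, 20 as reported, was between 17 and 27 under 9 of the 10 alternatives and 5 with scaling to the hybridisation spikes. The lower count, 7 as reported, was 4 with median scaling, 22 with the spikes, 11 with the floor at the 20th percentile, 3 with it at the 60th and 2 with it at the negative controls. The shares of all measured genes moved as well. With quantile normalization 26.9% of members and 18.3% of all genes were higher, and 7.46% and 18.8% lower. With the spikes 7.46% and 5.77% were higher, and 32.8% and 45.9% lower. With those floors, in that order, 15.5%, 4.84% and 3.57% of members were lower. The shares of all genes were 27.4%, 15.0% and 9.37%. The members' median log2 ratio, 0.29 as reported, was 0.47 with median scaling, 0.12 after quantile normalization and -0.16 with the spikes. Averaging over probe sets turned Lman2 to -0.82. Of the 20 higher members, 1 (Tmed4) stayed past 1.5-fold under all 10 alternatives and 10 under all but the spikes at most. Of the 7 lower ones, Arfgap3 and Sec11c stayed under all 10. The alternative that uses only probe sets without a suffix was chosen after seeing the data. With 1 array per group, no replicate could be left out and the number of arrays limits the precision. No paired analysis was possible because each group has 1 array.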
